A study of Arabidopsis thaliana with 18 samples.

Results

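The genes described here are 46 Arabidopsis thaliana genes of the DNA replication machinery, chosen by gene ID from the named complexes that license, start and run a replication fork, out of 33602 genes in each deposited table. No expression value entered that choice, although the list was drawn up with results of these data already known. By role they fall into 7 groups: 7 subunits of the origin recognition complex, 4 licensing loaders, 7 genes of the MCM helicase and its partner ETG1, 7 fork activation genes, 9 polymerase and primase genes, 7 genes of the PCNA clamp and its loader, and 5 genes of single-stranded DNA binding and flap processing. All 46 were present in each of the 3 tables.

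RNA-seq was run on 18 samples of seeds: 3 replicates each of dry ΔDS, dry +WT, imbibed ΔDS, imbibed +WT, salt ΔDS and salt +WT seeds. Both genotypes are called complemented in the labels; from knowledge of the study the complementing gene is FLOE1, carried with a deletion named DS (ΔDS) or intact (+WT). Imbibed seeds lay on MS agar without added NaCl, and salt seeds on the same medium with 220 mM NaCl; both were stratified in darkness for 5 days (4 °C) and then given 4 h of light at 22 °C. Nothing in the labels tells if the replicates are separate plants, or how many transgenic lines were used, so p-values measure the spread between these samples, and the deletion cannot be told apart from the line or its insertion. The RNA protocol in the labels names both seeds and siliques.

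Each chromosome is copied once per cell cycle. The origin recognition complex (ORC) marks start sites, CDC6 and CDT1 load the ring-shaped MCM2-7 helicase there, and CDC45 and the GINS complex turn that helicase into an active fork. Polymerases alpha, delta and epsilon then copy the strands, with PCNA as a sliding clamp set on DNA by replication factor C (RFC) and RPA covering single strands. In plants as in animals, many of these genes are transcribed at the entry to S phase under E2F transcription factors, and in a germinating seed replication starts again after a period of dryness.

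The E2F link is the reason to look at the sequence just before these genes. The E2F site was taken as 4 forms (TTTCCCGC, TTTGGCGC, TTTCGCGC and TTTGCCGC), which were searched on both strands in the 250 bases before each annotated start in RefSeq TAIR10.1; no form is the reverse complement of another. These forms were chosen after the data were seen. A match was found for 15 of the 46 members (32.6%), against 377 of 26712 protein-coding genes in the tables (1.41%). TTTCCCGC was found in 10 members and TTTGGCGC in 6, with ICU2 holding both; the other forms were found in none, in these windows. A match lay before 5 of the 7 MCM helicase genes and 0 of the 7 clamp and loader genes. The last 100 bases before the start are printed for 6 members that rose in imbibed ΔDS seeds and for AT5G26680, which holds a match and was called in no state. The strand printed is the gene's own, 5′ to 3′, and capitals mark a match on either strand. The coordinates are MCM2 chr1:16970114-16970213 (plus strand), MCM4 chr2:7130730-7130829 (minus), MCM5 chr2:3527501-3527600 (minus), MCM6 chr5:18010668-18010767 (minus), ICU2 chr5:26776853-26776952 (plus), POLA3 chr5:16760746-16760845 (plus) and AT5G26680 chr5:9315551-9315650 (minus), and none of these windows overlapped another annotated gene.
MCM2: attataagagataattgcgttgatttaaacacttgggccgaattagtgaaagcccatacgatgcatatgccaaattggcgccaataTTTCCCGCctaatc
MCM4: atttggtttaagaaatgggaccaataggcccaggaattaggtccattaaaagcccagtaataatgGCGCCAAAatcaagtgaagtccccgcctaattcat
MCM5: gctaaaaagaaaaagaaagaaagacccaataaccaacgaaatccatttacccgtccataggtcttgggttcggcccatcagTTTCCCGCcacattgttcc
MCM6: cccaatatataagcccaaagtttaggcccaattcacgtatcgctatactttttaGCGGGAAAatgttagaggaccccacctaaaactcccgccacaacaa
ICU2: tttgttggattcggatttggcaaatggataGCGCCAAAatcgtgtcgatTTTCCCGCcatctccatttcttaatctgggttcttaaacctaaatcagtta
POLA3: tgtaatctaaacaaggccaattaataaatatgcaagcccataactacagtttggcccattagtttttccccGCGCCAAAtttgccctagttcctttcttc
AT5G26680: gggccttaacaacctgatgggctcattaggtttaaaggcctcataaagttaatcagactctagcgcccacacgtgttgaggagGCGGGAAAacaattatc

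Over all 15 members the matches nearest the start lay from 9 bases before it in ORC2 to 170 bases before it in MCM3. The other members with a match were ORC1A, ORC3, AT1G07270, PSF2, AT3G42660 and RPA70B. Of the 15 members with a match, 11 rose in imbibed ΔDS seeds, and of the 31 without one, 18 rose. Among all protein-coding genes tested in imbibed seeds the shares that rose were 27.2% with a match and 21.6% without. A match describes letters in a window and says nothing about binding.

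The deposited tables hold, for each gene, the authors' mean normalised count over the 6 libraries of a state and a log2 fold change with its standard error, which is printed after ± throughout; they hold no value per library. The sums of these means were 2.63677e+07 (dry), 2.45262e+07 (imbibed) and 2.60802e+07 (salt), and the median log2 fold change of all tested genes lay within 0.02 of 0 in each state. The headers do not state which genotype is the numerator; ΔDS is taken to be on top, as it is named first, so a positive value means higher in ΔDS. The log2 fold changes of FLOE1 in the authors' deposited tables were −5.53 ± 0.090 (dry), −5.58 ± 0.16 (imbibed) and −5.00 ± 0.067 (salt). FLOE1 was implied at 293 in ΔDS and 13978 in +WT imbibed seeds, in normalised counts. A lower FLOE1 read count in ΔDS libraries thus accompanied every comparison, and the deletion cannot be told apart from a lower FLOE1 level. Seed storage and late embryo markers also moved with genotype: 4 of 7 were lower in dry, 7 of 7 in imbibed and 7 of 7 in salt ΔDS seeds. Over all tested genes 3.10% (dry), 19.5% (imbibed) and 6.99% (salt) were lower, and 2.96%, 21.3% and 6.98% higher. The 7 seed storage and late embryo markers had a summed implied level of 42030 in ΔDS and 87451 in +WT imbibed seeds. In salt seeds their sum was 77154 in ΔDS and 89254 in +WT, all in normalised counts-per-million (CPM). Of 5 seed coat markers 2 (MUM4 and TTG2) were tested in imbibed seeds, and both were higher in ΔDS there but did not pass in salt seeds. Of 4 endosperm markers 3 were tested in each state. AGL62 was higher and EPR1 lower in ΔDS in all 3 states, and MAN7 was higher in imbibed and salt seeds. AGL62 was scarce, with means of 16.8, 12.3 and 10.4 normalised counts in dry, imbibed and salt seeds. EPR1 and MAN7 had imbibed means of 483853 and 3141. TT10, a seed coat gene, was listed at 0 in all 3 tables. Of 5 pollen markers 2 were lower in dry ΔDS seeds, and 0 of the 2 tested passed in imbibed and in salt seeds (0 at an unadjusted p under 0.05). What part these shifts have in the results below was not tested, and in bulk seeds more cells of a type and more RNA per cell cannot be told apart.

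Replication genes were present unevenly across seed states. The median member level, in normalised CPM of the table's total per kb of exon, was 0.466 for the dry table, 4.09 for the imbibed and 1.14 for the salt; the 3 tables were normalised separately, so these levels are set side by side without a test. In dry seeds 23 members had a mean below 20 normalised counts, and 5 of them (ORC1B, ORC2, CDC6, CDT1A and POLA3) were listed at 0. In imbibed seeds 4 members lay below 20, and in salt seeds 15.

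By role, median levels in dry seeds were low for the licensing and helicase genes. Medians were higher for the clamp and loader group and for the RPA and FEN1 genes. Within these groups RPA70B, at 0.0112, and both clamp genes, PCNA1 at 0.0272 and PCNA2 at 0.606 normalised CPM per kb, were exceptions. Across dry, imbibed and salt seeds the MCM helicase genes had median levels of 0.0283, 4.86 and 0.564 normalised CPM per kb. The clamp and loader genes had medians of 4.88, 20.6 and 18.5 on the same scale. The 2 most abundant members per kb in dry seeds were RFC3 at 15.8 and RFC1 at 15.1, both subunits of the clamp loader. EMB1968, another loader subunit, led in imbibed seeds at 34.3, and AT5G26680, the flap endonuclease FEN1 of the list, led in salt seeds at 30.2. A pair of RPA subunits ran the other way: RPA2 had 6.80, 3.45 and 1.73, and RPA32B 5.3, 4.57 and 2.49 normalised CPM per kb in dry, imbibed and salt seeds.

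**Figure D1:**
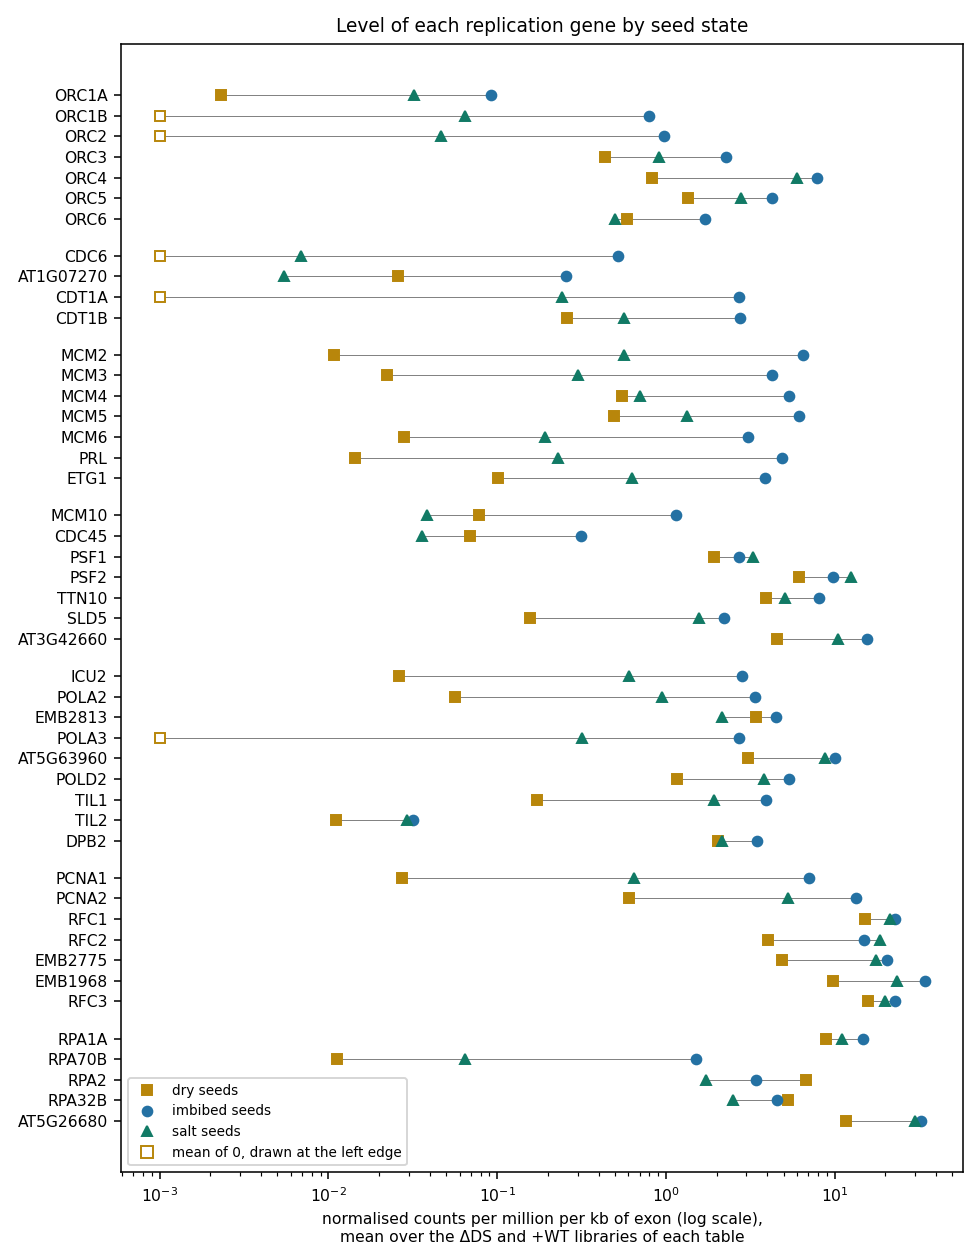
Mean level of each member in dry, imbibed and salt seeds, over both genotypes, in normalised CPM per kb of exon on a log axis, grouped by role. Points at the left edge are means of 0; MCM helicase genes lie far apart between dry and imbibed seeds, while RFC1, RFC3 and AT5G26680 are high in all 3 states.

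In imbibed seeds, 29 of the 46 replication genes were higher in ΔDS than in +WT and none was lower (adjusted p under 0.05, DESeq2 as deposited). Over all 19430 genes tested in that state 40.8% were called, 21.3% higher and 19.5% lower. In salt seeds, 14 of 43 tested members were higher and none was lower, where 14.0% of 18518 genes were called, 6.98% higher and 6.99% lower. In dry seeds none of the 28 tested members was called, where 6.06% of 16597 genes were, 2.96% higher and 3.10% lower. At an unadjusted p under 0.05 there were 31 higher and 0 lower members in imbibed, 22 and 0 in salt, and 2 and 0 in dry seeds. The 2 in dry seeds were RFC3 (0.21 ± 0.090, adjusted p = 0.195) and RPA2 (0.29 ± 0.12, adjusted p = 0.137) in the authors' deposited table. The median member log2 fold change was 0.80 in imbibed and 0.56 in salt seeds, beside 0.02 and 0.0038 over all tested genes. Rescaling each genotype by its implied total moved the median gene by 0.08 (dry), 0.19 (imbibed) and 0.16 (salt) on the log2 scale towards ΔDS. Under that scaling 77.2% of all imbibed calls were higher in ΔDS, against 52.1% as deposited, 89.8% of salt calls against 50.0%, and 82.9% of dry calls against 48.9%. With a t distribution on 4 degrees of freedom in place of the normal one, 0 members passed in any state, as did 0 genes of the whole imbibed and 3 of the whole salt table. With a minimum of 5 CPM 5 of 17 members passed in salt seeds: ORC4, TIL1, PCNA2, RFC1 and, not called as deposited, AT5G63960 (adjusted p = 0.0464).

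In both imbibed and salt ΔDS seeds 12 of the 43 members tested in both rose, while 944 of 18219 genes tested in both states (5.18%) did. These 12 were ORC3, MCM2, MCM3, MCM4, MCM6, ETG1, SLD5, ICU2, POLA2, POLA3, TIL1 and PCNA2. Of all 46 members, another 17 were called in imbibed seeds alone, ORC4 and RFC1 in salt seeds alone, and 15 in neither. The 17 include AT1G07270 and MCM10, and the 15 include CDC6, which were not tested in salt seeds. The tables of the 2 states share no library.

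**Figure D2:**
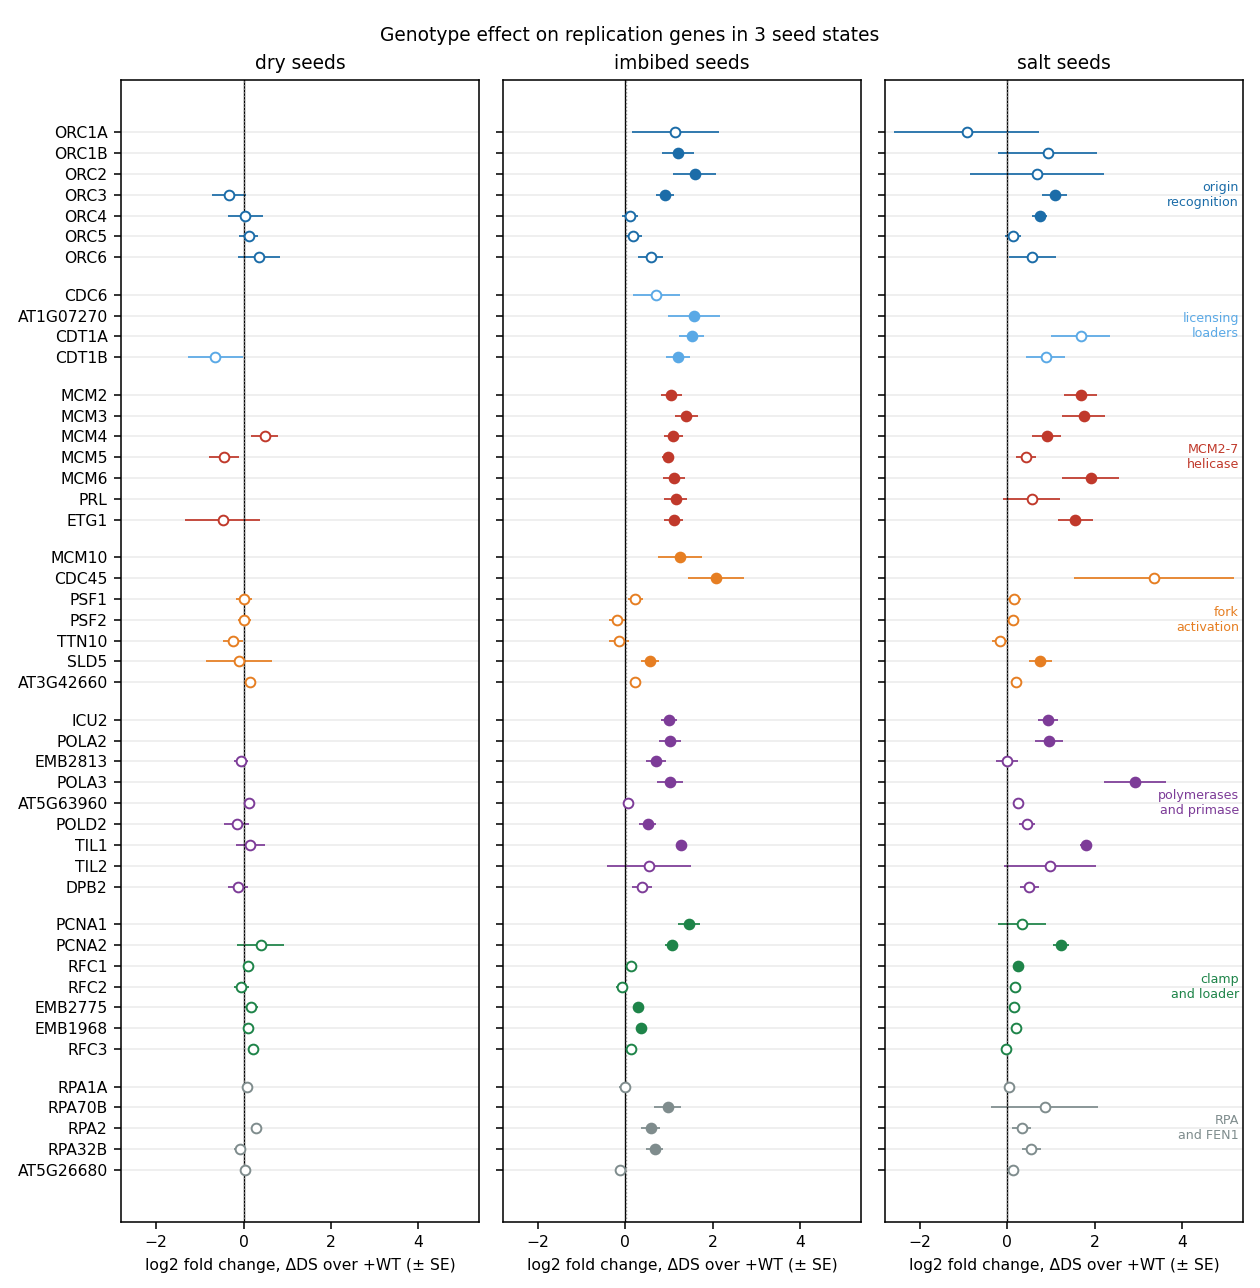
Genotype effect (log2 of ΔDS over +WT, with its deposited standard error) of each member in dry, imbibed and salt seeds, grouped by role. Filled points passed an adjusted p under 0.05 and open points did not; genes the authors' adjustment left out are not drawn, and every filled point lies to the right of 0.

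The origin recognition complex was partly higher. In imbibed ΔDS seeds 3 of its 7 genes rose, namely ORC1B, ORC2 and ORC3, with log2 fold changes of 1.20 ± 0.38, 1.58 ± 0.48 and 0.90 ± 0.21 (adjusted p = 0.00556, 0.00456 and 1.48e-04) in the authors' deposited table. In salt seeds ORC3 had 1.08 ± 0.29 (adjusted p = 0.00310) and ORC4 0.74 ± 0.17 (adjusted p = 2.89e-04) in the deposited table. ORC3 was implied at 188 in ΔDS and 101 in +WT imbibed seeds, and at 83.4 in ΔDS and 39.4 in +WT salt seeds, in normalised counts. In imbibed seeds ORC4 did not pass, at 0.11 ± 0.18 (adjusted p = 0.655) in the deposited table. ORC5 and ORC6 passed in no state, with imbibed log2 fold changes of 0.18 and 0.58 in the deposited table. ORC1A, the close copy of ORC1B, had a mean of only 5.73 normalised counts in imbibed seeds and a fold change of 1.14 ± 0.99 in the deposited table, too imprecise to set against ORC1B.

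Among the licensing loaders, which bring the helicase to ORC, 3 of 4 rose in imbibed ΔDS seeds. CDT1A, the loading factor, was implied at 215 in ΔDS and 75.2 in +WT imbibed seeds, a log2 fold change of 1.52 ± 0.28 (adjusted p = 1.71e-06) in the deposited table. Its paralogue CDT1B had 1.20 ± 0.28 (adjusted p = 1.40e-04), also in the deposited table. AT1G07270, the second Cdc6 gene, had 1.58 ± 0.60 (adjusted p = 0.0240) at a mean of 12.4 normalised counts, and CDC6 had 0.71 ± 0.54 (adjusted p = 0.30), per the authors' deposited table. Under salt neither Cdc6 gene was tested, and CDT1A (1.68 ± 0.67, adjusted p = 0.0755) and CDT1B (0.89 ± 0.45, adjusted p = 0.195) did not pass in the authors' deposited table.

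The MCM helicase genes rose together in imbibed ΔDS seeds: all 7 passed, and their log2 fold changes lay close together, between 0.97 for MCM5 and 1.39 for MCM3 in the authors' deposited table. MCM2 was implied at 681 in ΔDS and 329 in +WT imbibed seeds, in normalised counts, and MCM3 at 459 in ΔDS and 175 in +WT. MCM4 was implied at 513 in ΔDS and 239.7 in +WT, MCM5 at 536 in ΔDS and 274 in +WT and MCM6 at 299 in ΔDS and 139 in +WT. PRL (PROLIFERA), the MCM7 subunit, was implied at 435 in ΔDS and 196 in +WT, and ETG1, an E2F target that binds the MCM complex, at 302 in ΔDS and 140.1 in +WT. The 7 fold differences lay between 1.96 for MCM5 and 2.62 for MCM3. Adjusted p-values in the deposited table ran from 8.40e-11 for MCM5 to 1.72e-04 for MCM2. Summed over the 7 genes, the implied level was 141 in ΔDS and 57.2 in +WT imbibed seeds, and 15.5 in ΔDS and 6.81 in +WT salt seeds, in normalised CPM.

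Under salt the helicase genes had lower levels in both genotypes, and 5 of 7 rose in ΔDS seeds. MCM2 was implied at 71.3 in ΔDS and 22.3 in +WT salt seeds (1.68 ± 0.37, adjusted p = 1.57e-04 in the deposited table). MCM3 was implied at 36.9 in ΔDS and 11.0 in +WT (1.75 ± 0.49, adjusted p = 0.00481, deposited table), MCM6 at 23.2 in ΔDS and 6.17 in +WT (1.91 ± 0.65, adjusted p = 0.0286, deposited table) and ETG1 at 56.8 in ΔDS and 19.3 in +WT (1.56 ± 0.39, adjusted p = 0.00106, deposited table). MCM4 passed narrowly, with 0.90 ± 0.33 (adjusted p = 0.0498) in the deposited table, and missed the threshold when the adjustment covered every gene with a p-value (0.0614). MCM5 and PRL did not pass, at 0.43 ± 0.24 (adjusted p = 0.251) and 0.56 ± 0.65 (adjusted p = 0.689) in the deposited table. In dry seeds MCM2, MCM3, MCM6 and PRL had means of 0.913, 1.78, 2.17 and 1.01 normalised counts in the authors' deposited table and were not tested.

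**Figure D3:**
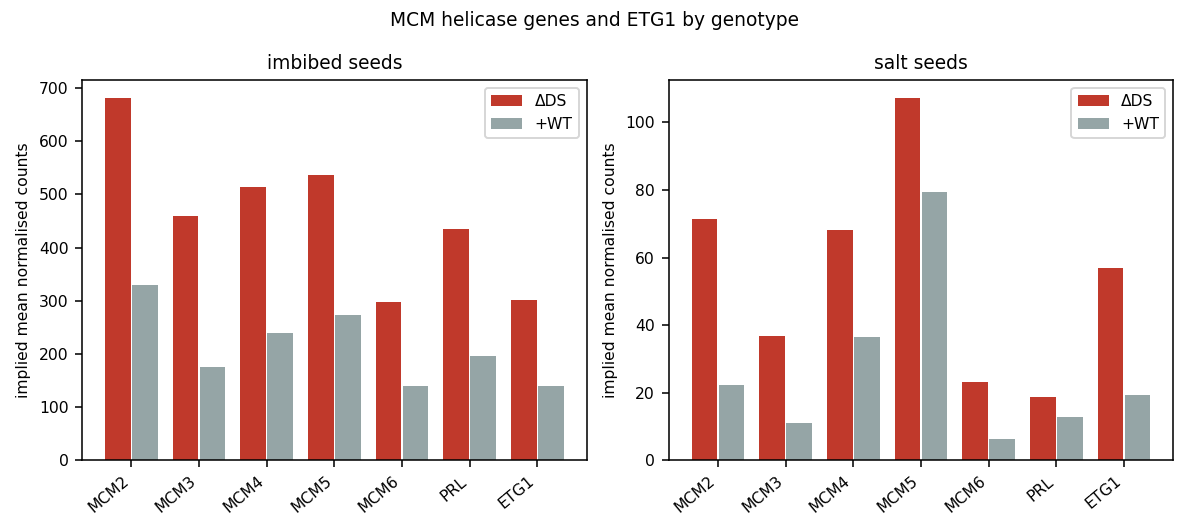
Implied mean normalised count of the 7 MCM helicase genes in ΔDS (left of each pair) and +WT seeds, as bars on a linear axis. Imbibed and salt seeds are shown. These means are worked out from the deposited mean and fold change, so no error is drawn. In imbibed seeds every ΔDS bar is taller than its +WT bar, MCM2 at 681 in ΔDS and 329 in +WT.

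Fork activation genes, which turn the loaded helicase on, were mixed: 3 of 7 rose in imbibed and 1 of 6 tested in salt ΔDS seeds. MCM10, an early fork factor, had 1.25 ± 0.50 (adjusted p = 0.0326) and CDC45, a helicase subunit, 2.07 ± 0.63 (adjusted p = 0.00468) in imbibed seeds in the authors' deposited table. Both were scarce, with CDC45 implied at 29.0 in ΔDS and 6.91 in +WT imbibed seeds in normalised counts. SLD5 was the one GINS gene to pass, with 0.56 ± 0.21 (adjusted p = 0.0218) in imbibed and 0.76 ± 0.26 (adjusted p = 0.0319) in salt seeds in the deposited tables. The other GINS genes, PSF1, PSF2 and TTN10 (the PSF3 subunit), lay between −0.19 and 0.23 in imbibed and between −0.17 and 0.16 in salt seeds in the deposited tables. AT3G42660, a WD-40 repeat protein, had 0.22 ± 0.11 (adjusted p = 0.0971) in imbibed and 0.21 ± 0.087 (adjusted p = 0.0987) in salt seeds in the deposited tables. CDC45 had the largest fold change of any tested member under salt, with a wide error, 3.36 ± 1.83 (adjusted p = 0.246) in the deposited table.

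All 4 genes of the polymerase alpha-primase complex, which lays the first primers, rose in imbibed ΔDS seeds. The catalytic subunit ICU2 had 0.99 ± 0.18 (adjusted p = 1.93e-06), the B subunit POLA2 1.01 ± 0.25 (adjusted p = 3.41e-04), the large primase subunit EMB2813 0.71 ± 0.23 (adjusted p = 0.00728) and the small one POLA3 1.03 ± 0.30 (adjusted p = 0.00248) in the authors' deposited table. Under salt 3 of the 4 rose. POLA3 was implied at 24.8 in ΔDS and 3.28 in +WT salt seeds in normalised counts (2.92 ± 0.71, adjusted p = 6.85e-04 in the deposited table), a 7.57-fold difference. ICU2 had 0.93 ± 0.23 (adjusted p = 0.00113) and POLA2 0.96 ± 0.32 (adjusted p = 0.0237), while EMB2813 did not pass, at −0.012 ± 0.25 (adjusted p = 0.986), all in the deposited table.

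Of the polymerase epsilon genes, which encode the leading-strand enzyme, TIL1 passed, and TIL2 and DPB2 did not. The catalytic gene TIL1 was implied at 1198 in ΔDS and 497 in +WT imbibed seeds and 688 in ΔDS and 198 in +WT salt seeds, in normalised counts. Those are 2.41-fold and 3.47-fold differences, with log2 fold changes of 1.27 ± 0.11 (adjusted p = 8.67e-30) and 1.80 ± 0.13 (adjusted p = 2.56e-41) in the deposited tables. The copy TIL2 was scarce, at a mean of 5.08 normalised counts in imbibed seeds, and had 0.53 ± 0.96 (adjusted p = 0.692) in the deposited table. DPB2, the B subunit, had 0.38 ± 0.23 (adjusted p = 0.171) in imbibed and 0.50 ± 0.22 (adjusted p = 0.115) in salt seeds in the deposited tables. For polymerase delta, the lagging-strand enzyme, POLD2 had 0.51 ± 0.20 (adjusted p = 0.0296) in imbibed seeds and the catalytic gene AT5G63960 0.057 ± 0.11 (adjusted p = 0.712) in the deposited table. TIL1 shares 19.9% of its exon bases with ADT6, which lies on the opposite strand and had −1.0 ± 0.25 (adjusted p = 5.06e-04) at a mean of 82.1 normalised counts in imbibed seeds in the deposited table. ICU2 shares 15.0% with ALC (1.52 ± 0.32, adjusted p = 2.12e-05, mean 81.8, in imbibed seeds in the deposited table). The sources used here do not state whether counting used strand, and the part of shared reads was not tested.

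Both clamp genes rose in imbibed ΔDS seeds, as did 2 of the 5 clamp loader genes. PCNA1 and PCNA2, which encode the clamp, had 1.46 ± 0.25 (adjusted p = 2.56e-07) and 1.05 ± 0.16 (adjusted p = 1.09e-09) in imbibed seeds in the authors' deposited table. PCNA1 was implied at 288 in ΔDS and 105 in +WT and PCNA2 at 523 in ΔDS and 252 in +WT imbibed seeds, in normalised counts. Under salt PCNA2 had 1.24 ± 0.18 (adjusted p = 9.62e-10) and PCNA1 0.34 ± 0.54 (adjusted p = 0.789) in the deposited table, PCNA1 being implied at 21.3 in ΔDS and 16.9 in +WT salt seeds. PCNA2 shares 23.6% of its exon bases with ENOC on the opposite strand. ENOC had 0.66 ± 0.13 (adjusted p = 6.30e-06) in imbibed and 0.057 ± 0.12 (adjusted p = 0.847) in salt seeds in the deposited tables. Its means were 687 in imbibed and 389 in salt seeds, beside 387 and 163 normalised counts for PCNA2. What part shared reads have in the PCNA2 values was not tested. The loader subunits that passed had small fold changes: EMB2775 had 0.30 ± 0.11 (adjusted p = 0.0228) and EMB1968 0.35 ± 0.11 (adjusted p = 0.00752) in imbibed seeds, and RFC1 0.24 ± 0.063 (adjusted p = 0.00167) in salt seeds, in the deposited tables. RFC1, RFC2 and RFC3 lay between −0.078 and 0.12 in imbibed seeds in the deposited table and did not pass.

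RPA coats single-stranded DNA at the fork. RPA70B, RPA2 and RPA32B rose in imbibed ΔDS seeds, with 0.97 ± 0.32 (adjusted p = 0.00802), 0.58 ± 0.22 (adjusted p = 0.0223) and 0.67 ± 0.19 (adjusted p = 0.00199) in the authors' deposited table. RPA1A and the flap endonuclease AT5G26680 had −0.0028 ± 0.13 (adjusted p = 0.989) and −0.11 ± 0.10 (adjusted p = 0.360) there in the deposited table. None of the 5 passed under salt; 1 had an unadjusted p under 0.05.

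Within pairs of paralogues the copies could be compared only where reads were unlikely to be shared. CDT1A and CDT1B, RPA1A and RPA70B, and RPA2 and RPA32B shared 0 words of 31 bases in their exons, and PCNA1 and PCNA2 shared 1. ORC1A and ORC1B shared 220 words, 8.80% of the first and 7.83% of the second; TIL1 and TIL2 shared 267, and the Cdc6 pair 22, so the scarcer copies of these are uncertain. Over all 46 members, 19 share exon bases with another annotated gene, 7 of them over 10% of their exon length. RPA2 shares 7.63% with FZF on the same strand, and FZF had a dry mean of 2755 normalised counts beside 406 for RPA2. The log2 fold change of FZF was 0.23 (adjusted p = 0.00445) in dry and −0.030 (adjusted p = 0.798) in imbibed seeds in the deposited tables. What part shared reads have in the RPA2 values was not tested.

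Members that were low in dry seeds had higher imbibed log2 fold changes than members abundant there. Of 13 members under 20 normalised counts in dry and at 100 or more in imbibed seeds, 13 rose in imbibed ΔDS seeds and 9 in salt ΔDS seeds. Of 1007 other genes in that class, 66.2% rose in imbibed and 17.6% of the 984 tested in salt seeds. The limit of 100 is on the imbibed mean of both genotypes, so a higher level in ΔDS helps to place a gene in this class. Imbibed and salt effects also went together across members (Pearson r of 0.65), so this selection can carry over to salt seeds. Nothing is therefore read from the shares or medians of this class in either state. CDT1A, CDT1B, SLD5 and POLA3, 4 of the 13 members, and 218 of the 1007 other genes were implied under 100 in +WT. The class medians were 1.10 for members and 0.78 for other genes in imbibed seeds, and 1.24 and 0.36 in salt seeds, on the log2 scale. Of 16 members at 100 or more in dry seeds, 5 rose in imbibed and 1 in salt ΔDS seeds; of other genes in that class 16.0% and 6.68% rose. The medians of that class in imbibed seeds were 0.17 for members and −0.12 for other genes. Of 7 members between 20 and 100 in dry seeds 5 rose in imbibed and 4 in salt ΔDS seeds, and of the 10 low in both states 6 rose in imbibed seeds (median 1.17) and 0 of the 7 tested in salt seeds (0 at an unadjusted p under 0.05). Both limits were chosen after values were seen, and members were not compared with other genes by a test. Across members, the dry level (log2 of CPM per kb plus 0.01) and the imbibed log2 fold change had a Pearson r of −0.78 and a Spearman rho of −0.75 (n = 46); for salt these were −0.55 and −0.68 (n = 43). The points of each correlation come from the same libraries, and low members have larger errors.

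**Figure D4:**
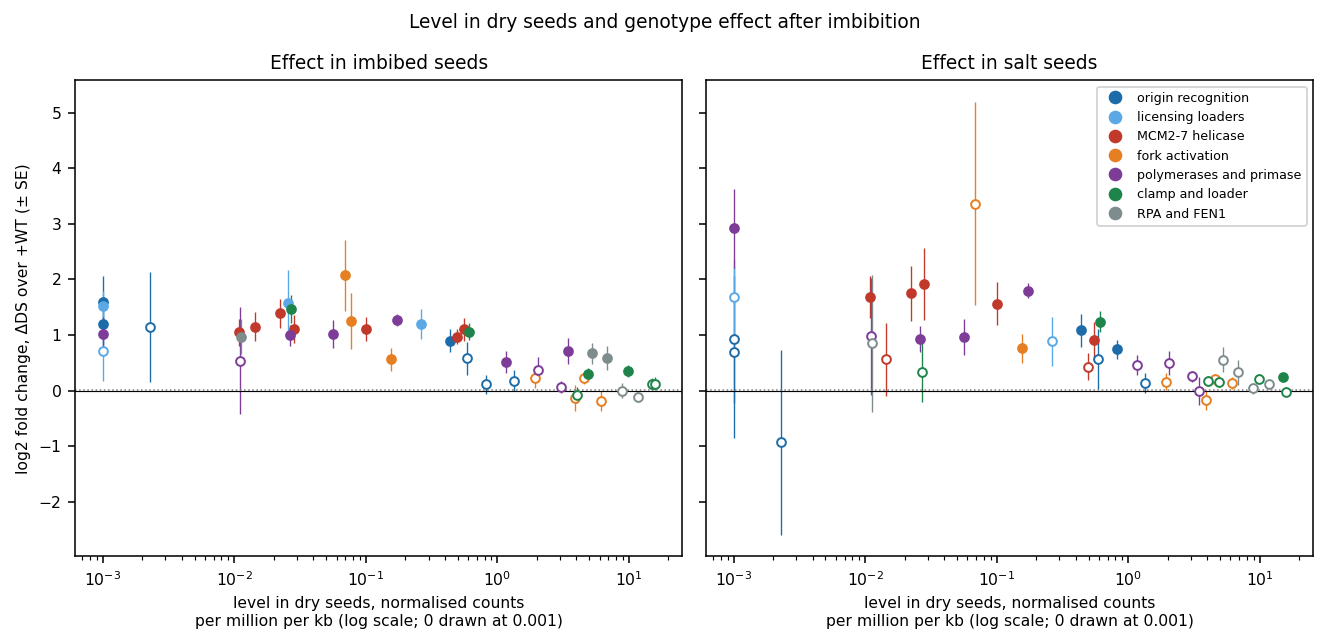
Genotype effect (log2 of ΔDS over +WT) in imbibed and salt seeds against the mean level in dry seeds, in normalised CPM per kb on a log axis (a mean of 0 is drawn at the left edge); each point is 1 member, filled where called. Members low in dry seeds lie higher (r = −0.78 in imbibed, −0.55 in salt seeds).

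Differences of the genotype effect between states were tested with an approximate two-sided z test on the deposited fold changes, Benjamini-Hochberg adjusted over all genes tested in both tables. From dry to imbibed seeds the effect was larger for 6 of 28 members and smaller for 0, where 25.0% of 16228 genes were called, 8.49% larger and 16.5% smaller. The 6 were ORC3, CDT1B, MCM5, EMB2813, TIL1 and RPA32B, and MCM5 had the difference with the smallest adjusted p, 1.42 ± 0.37 (adjusted p = 0.00171). Of the 7 helicase genes, 4 had no adjusted p in dry seeds and could not enter this test.

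Between salt and imbibed seeds 1 of 43 members differed, where 9.16% of 18219 genes did, 5.85% with a larger and 3.31% with a smaller effect under salt. TIL1 had a salt effect larger by 0.53 ± 0.17 (adjusted p = 0.0277, 95% interval 0.20 to 0.85), a call lost when a trend with gene length was removed (0.43, adjusted p = 0.0804), and it was also the 1 of 28 members called for salt minus dry, where 5.83% of 16281 genes were, 1.64% larger and 4.19% smaller under salt. The salt minus imbibed differences of POLA3, 1.90 ± 0.77 (adjusted p = 0.0939), ORC4, 0.64 ± 0.25 (adjusted p = 0.0771), and PCNA1, −1.13 ± 0.60 (adjusted p = 0.223), did not pass. A member called in imbibed and not in salt seeds is therefore not shown to differ between them. The median salt minus imbibed difference of the members was −0.02, beside 0.05 over all genes. Across 43 members the effects in the 2 states had a Pearson r of 0.65 and a Spearman rho of 0.69, as a description.

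**Figure D5:**
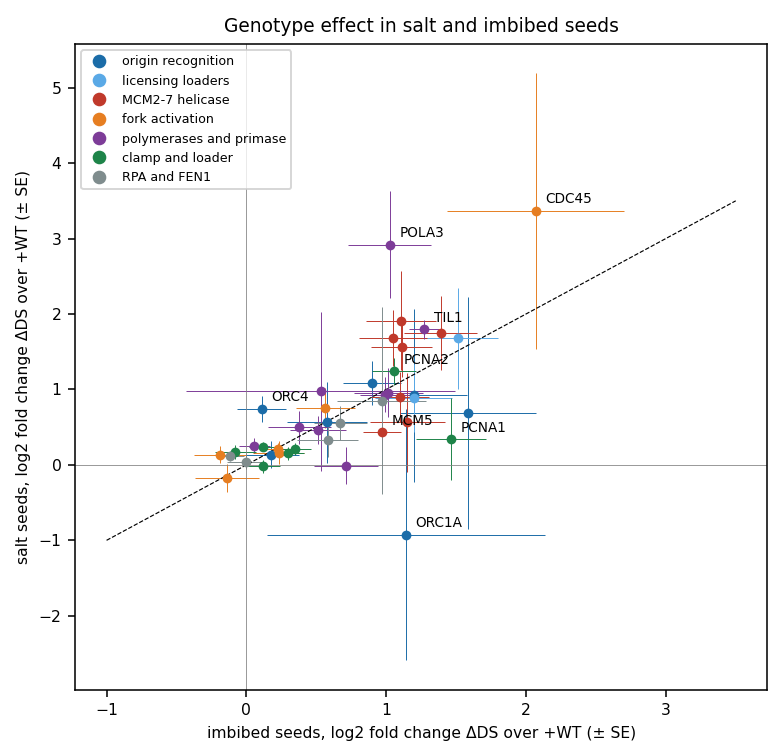
Genotype effect (log2 of ΔDS over +WT, bars are deposited standard errors) in salt seeds against imbibed seeds, 1 point per member tested in both. The line marks equal effects; TIL1 lies above it with a difference of 0.53 ± 0.17, and bars are longer along the salt axis for low genes such as CDC45.

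Other genes of the pathway were taken from lists drawn up with earlier results known, and their counts stand beside the 21.3% of all tested genes that were higher in imbibed and the 6.98% in salt ΔDS seeds. Nucleotide supply genes, which make deoxynucleotides, rose in 5 of 7 cases in imbibed and 3 of 6 in salt ΔDS seeds: TSO2, a ribonucleotide reductase subunit, had 3.05 ± 0.16 and 4.5 ± 0.070, and RNR1, its large partner, 0.96 ± 0.086 and 1.5 ± 0.064 in the authors' deposited tables. Replication chromatin genes rose in 5 of 7 and 2 of 7 cases, FAS1, a subunit of chromatin assembly factor 1, with 1.01 ± 0.29 and 2.52 ± 0.43 in the deposited tables. Among the other replication genes 8 of 16 rose and 1 was lower in imbibed, and 4 of 15 rose in salt seeds. RPA1E, a large RPA subunit, had 2.29 ± 0.31 and 2.50 ± 0.33, and TOP1ALPHA, a topoisomerase, −0.20 ± 0.083 in imbibed seeds in the deposited tables; TOP1ALPHA is named after its value was seen, as the 1 lower gene. Of the E2F and retinoblastoma regulators 2 of 9 rose in each state, in imbibed seeds a share near that of all genes; E2F3 had 1.36 ± 0.28 in imbibed and 1.23 ± 0.41 in salt seeds in the deposited tables.

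A last pair of lists set the replication genes beside division and damage. Mitosis genes rose in 1 of 12 cases in imbibed and 1 of 12 in salt ΔDS seeds, with medians of −0.22 and 0.09. The riser in each was CYCB1;1, a cyclin also induced by DNA damage (2.45 ± 0.19 and 2.78 ± 0.20 in the deposited tables). The other tested mitosis genes were mostly scarce, with means from 4.04 to 87.0 normalised counts in imbibed and 4.31 to 131 in salt seeds. Standard errors among the scarcest reached 1.26 in imbibed and 1.14 in salt seeds. Few calls therefore do not show that the mitosis genes stayed level. DNA damage response genes rose in 8 of 10 cases in imbibed and 10 of 10 in salt seeds, with medians of 1.86 and 2.95; SMR7, a cell cycle inhibitor, had 4.18 ± 0.32 and 5.29 ± 0.33, and BRCA1, a repair gene, 2.25 ± 0.21 and 4.18 ± 0.33 in the deposited tables. In dry seeds 1 gene of these 6 lists was called, the mitotic kinase AUR2 (−0.46 ± 0.11, adjusted p = 0.00182, deposited table). It was 1 of 8 mitosis genes tested there. Over all 16597 genes tested in dry seeds 6.06% were called, 3.10% lower. The lists were not compared with each other by a test.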

How the data were processed

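RNA was sequenced from 18 seed samples in 6 groups of 3. Per the submitters' processing notes, HISAT2, DESeq2 and TAIR10 were used; the sources used here give no versions, read counter, annotation release or strandedness. Each of the 3 deposited tables compares ΔDS with +WT in 1 state and holds, per gene, a mean normalised count (signal), a log2 fold change with its standard error, a Wald statistic (score), a p-value and an adjusted p-value, all made by the authors from 6 libraries. Depth per library is unknown, and no interval for counting error can be given.

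From these, group means were implied as 2 × mean × r/(1 + r) for ΔDS and 2 × mean/(1 + r) for +WT, r being the fold; they are approximate. A gene was called at an adjusted p under 0.05; a gene without an adjusted p is "not tested". Levels were divided by table totals and RefSeq TAIR10.1 exon length. Differences between states used an approximate z test with both standard errors (95% intervals). It was also run on simulated data drawn with normal errors of the deposited size. That run shares the assumption of the test, so it cannot tell whether the normal distribution holds for 3 libraries per group. Alternatives were adjustment over all p-values, a minimum of 5 CPM, a 2-fold minimum, scaling by implied totals, centring on the median gene, removing a lowess trend with length (span 0.3), and a t distribution (4 or 8 degrees of freedom). Tools were Python 3.11.15, statsmodels 0.14.6, scipy 1.17.1, pandas 2.3.3 and matplotlib 3.10.9. All 46 members may be named; of 62 genes in 6 pathway lists up to 3 per list with the smallest adjusted p in imbibed or salt seeds were eligible, plus FLOE1, and exceptions are marked. The only mitotic gene called in dry seeds, AUR2, and the neighbours ADT6, ALC, ENOC and FZF were named after their values were seen. The members and lists were chosen with earlier results of these data known. The motif forms, dry-level classes and paralogue check were also chosen after seeing the data.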

Additional observations from a re-analysis of the deposited data

Results flagged for a closer look

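Genotype effects (ΔDS over +WT, log2) of 6 members differed between states in the approximate z test described above, Benjamini-Hochberg adjusted over all genes. For imbibed minus dry 6 of 28 tested members were called, where 25.0% of 16228 genes were. For salt minus imbibed 1 of 43 was, where 9.16% of 18219 genes were. For salt minus dry 1 of 28 was, where 5.83% of 16281 genes were. From dry to imbibed seeds the effect was larger by 1.24 ± 0.44 for ORC3 (adjusted p = 0.0266), by 1.84 ± 0.69 for CDT1B (adjusted p = 0.0349) and by 1.42 ± 0.37 for MCM5 (adjusted p = 0.00171). It was also larger by 0.76 ± 0.28 for EMB2813 (adjusted p = 0.0314), by 1.12 ± 0.35 for TIL1 (adjusted p = 0.00986) and by 0.76 ± 0.23 for RPA32B (adjusted p = 0.00785). The TIL1 effect also differed for salt minus imbibed, at 0.53 ± 0.17 (adjusted p = 0.0277), and for salt minus dry, at 1.64 ± 0.36 (adjusted p = 3.02e-04). CDT1B and MCM5 had dry fold changes below 0 in the authors' deposited table, −0.65 ± 0.63 and −0.45 ± 0.35, neither of which passed. Single samples could not be examined, since the tables hold no value per library.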

How the results depend on the processing

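No called fold change or difference of a member changed sign under the alternatives run. The t distribution, the strictest, left 0 of the 29 imbibed and 0 of the 14 salt member calls and 0 of the 6, 1 and 1 differences (imbibed minus dry, salt minus imbibed, salt minus dry); over all genes it left 1, 0 and 3 calls in dry, imbibed and salt seeds. A 2-fold minimum left 18 imbibed and 8 salt calls and 0 salt minus imbibed differences. A minimum of 5 CPM gave 21 calls of 34 members tested in imbibed seeds and 5 of 17 in salt seeds (ORC4, TIL1, PCNA2 and RFC1, and AT5G63960 as a new call with adjusted p = 0.0464), and 2 imbibed minus dry and 0 salt minus dry differences. Scaling by implied totals gave 34 imbibed, 25 salt and 2 dry calls (RFC3 and RPA2) and 2 salt minus dry differences. Removing the length trend ended the TIL1 salt minus imbibed call (0.43, adjusted p = 0.0804), leaving 0. Centring and adjusting over all p-values gave 29 imbibed calls each, and 13 salt calls each, both losing MCM4. The causes were not tested. No paired analysis was possible because the tables hold no value per library; leaving out each replicate was not run for the same reason. Low means limit the salt and dry values: 15 and 23 members lay below 20 normalised counts.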
